A study of Mus musculus with 24 samples.

Results

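An actinomycin experiment begins from a library taken before the drug has acted, and that library is the reference for every decay value that follows. Here the library labelled as 16 h of stimulation and 0 h of actinomycin, called the start library below, was compared across all genes with the Th0, Th1 and Th2 cultures that had also been stimulated for 16 h. The question was which culture condition and which hour of the time course it was most like, and in which genes it stood apart. These 4 libraries, of 24 in the series, were taken by their labels alone. The 15 cultures at 4, 8, 12, 20 and 24 h, the 2 libraries of resting cells and the 3 libraries kept for 1, 2 or 4 h with actinomycin were used as points of reference.

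All libraries were prepared from purified CD4+ T cells of WT C57BL/6 adult spleen, obtained by magnetic negative selection. Th0 cultures received anti-CD3 and anti-CD28. Th1 cultures received anti-IL-4 and IL-12 in addition, and Th2 cultures received IL-4 with antibodies to IL-12 and IFN-γ in addition. The actinomycin libraries are labelled only as stimulated for 16 h, so their skewing condition is not known and none was assigned here. The cells of the time course were pooled from 6 mice and each culture was sequenced once. No pool or date is given for the actinomycin experiment. Its titles lack the number that ends those of the cultures, and the resting titles carry a different number. A separate purification or preparation therefore cannot be told apart from the other differences described here.

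Signals through the T cell receptor and CD28 activate NFAT, AP-1 and NF-κB, which switch on the early regulators of the EGR and NR4A families, then IL2 and other cytokines, and later growth and division. IL-12 acts through STAT4 and favours IFN-γ and T-bet. IFN-γ acts back on the T cells through IRF1, and the anti-IFN-γ in Th2 cultures blocks this loop while IL-4 acts through STAT6 and GATA3. Actinomycin D binds DNA and stops transcription, so levels measured at later hours of exposure reflect the decay of RNA already made.

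The mapped reads, recovered from the RPKM values, numbered 25735543 for the start library and 24013422, 32431411 and 25294786 for the Th0, Th1 and Th2 cultures at 16 h, within the range of 17512385 to 33017133 over the time course. Intervals given with ratios below are 95% intervals of the read counts and cover counting error only. Markers of CD4+ T cells were at similar levels in all 4 libraries. Cd3e, a subunit of the T cell receptor complex, was at 162 RPKM in the start library and at 173, 148 and 179 RPKM in the Th0, Th1 and Th2 cultures, and Cd4 was at 163 RPKM against 193, 199 and 173 RPKM. The 11 genes of a CD4+ T cell list summed to 2439 RPKM against 2295 to 2380 RPKM. The activation receptors Il2ra (204 RPKM against 213, 209 and 202 RPKM) and Tfrc, the transferrin receptor (162 RPKM against 143, 152 and 153 RPKM), also put the start library at an activated level.

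Over the 10727 genes whose mean reached 1 RPKM, the start library was nearest to the Th2 culture at 16 h. The distance, taken as the root mean square difference of log2(RPKM + 0.5), was 0.413 to that culture, with 265 genes at least 2-fold apart, Pearson's r = 0.980 and Spearman's rho = 0.981 across genes, which are not independent replicates. The Th2 culture at 12 h followed at 0.419, and the Th1 cultures at 20 and 12 h at 0.433 and 0.438. The Th1 and Th0 cultures at 16 h came 8th and 9th of the 18 cultures, at 0.467 with 499 genes and 0.489 with 489 genes at least 2-fold apart. Resting cells were farthest, at 1.17 in both libraries.

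**Figure D1:**
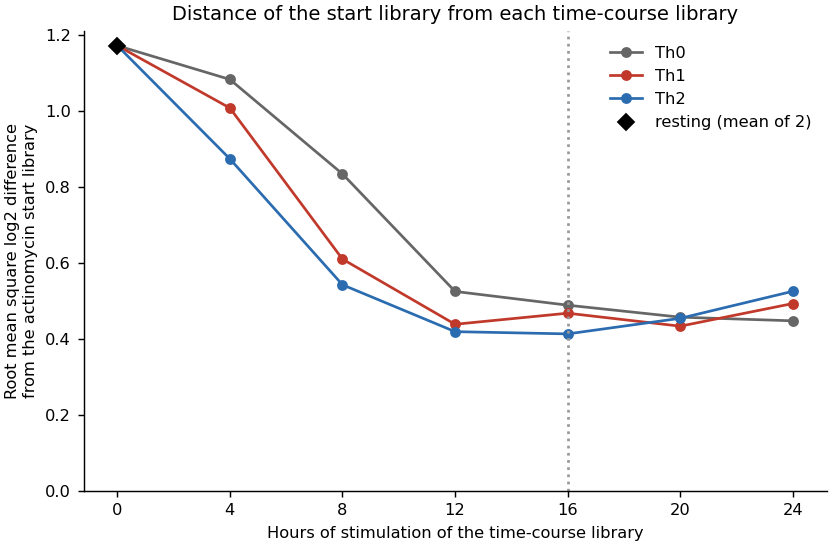
Root mean square difference of log2(RPKM + 0.5) between the start library and each library of the time course (vertical axis, log2 units) by hours of stimulation (horizontal axis), with 1 point per culture, conditions by colour and the mean of the 2 resting libraries at 0 h. The lowest point is the Th2 culture at 16 h (0.413), close to the Th2 culture at 12 h (0.419), and the distances at 4 h reach 1.08.

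The nearest-culture distance was longer than any such distance within the time course, by a margin that depended on the choice of neighbours. At 16 h the Th0 and Th1 cultures were 0.263 apart (93 genes at least 2-fold apart), Th0 and Th2 0.390 (276 genes), and Th1 and Th2 0.440 (395 genes). Each of the 18 cultures had a nearest culture at 0.239 to 0.406, so none stood as far from its nearest neighbour as the start library did. For 8 of the 18, that neighbour was a culture of another condition at the same hour. Others had their nearest neighbour in their own condition. Where the neighbour had to be of another condition, the highest distance was 0.4118, little under the 0.4129 of the start library. The library nearest to the start library of all those sequenced was the one kept for 1 h with actinomycin, at 0.285 with 57 genes at least 2-fold apart, and the libraries at 2 and 4 h were at 0.431 and 0.591. The order of the nearest cultures was close: when genes had to reach a mean of 5 RPKM, Th2 at 12 h came first at 0.374 and Th2 at 16 h next at 0.376, and by the median absolute difference Th2 at 12 h was first and Th2 at 16 h 6th.

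The genes that separate Th1 from Th2 cultures placed the start library between both, nearer to Th2. A set of 193 genes differed between Th2 and Th1 over the cultures at the other 5 hours (limma, adjusted p under 0.05 and at least 2-fold), a choice that used neither the start library nor any 16 h culture. On the line from the Th1 culture (0) to the Th2 culture (1) at 16 h, the start library lay at 0.628 and the Th0 culture at 0.267. Over their own hours the Th0 cultures lay between 0.146 and 0.391. Of the 193 genes, 156 were between the Th1 and the Th2 level in the start library, 11 were above both and 26 below both, and 125 were nearer to the Th2 than to the Th1 level. Of the 3 cultures, 57 genes were nearest to Th0. The point on the line does not describe the library fully: its distance from the line was 0.658 log2 units per gene, against 0.560 for Th0.

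The genes higher in Th1 and those higher in Th2 placed the library differently. Over the 131 genes higher in Th1, the start library lay at 0.667 and Th0 at 0.206. Over the 62 genes higher in Th2, the start library lay at 0.477 and Th0 at 0.498, and 27 of the 62 were nearer to Th2 than to Th1 while 27 were nearest to Th0. Of the genes higher in Th1, the 29 in an interferon response list lay at 0.601 (Th0 0.136) and the 102 others at 0.699 (Th0 0.239). The difference between the start library and Th0 was therefore on the side of the genes higher in Th1, whether or not they were in that list. The list does not hold every gene that interferons induce, so the 102 others cannot be taken as genes outside the interferon response.

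Among the interferon response genes with the widest gap between Th1 and Th2, Ifit3, an antiviral protein with tetratricopeptide repeats, was at 2.92 RPKM in the start library and at 17.1, 39.5 and 2.17 RPKM in the Th0, Th1 and Th2 cultures. Ifit1bl1 was at 1.91 RPKM against 22.3, 54.5 and 1.47 RPKM, and Pydc4 at 4.32 RPKM against 22.9, 40.9 and 2.41 RPKM. All 3 were close to the Th2 culture, at 0.91, 0.94 and 0.81 of the way from Th1. Cxcl10, a chemokine induced by IFN-γ, was instead at 22.7 RPKM, above Th0 (17.0 RPKM) and under Th1 (41.5 RPKM), with 2.09 RPKM in Th2. Positions varied from gene to gene along the line. Irf1, a transcription factor of the pathway, was at 176 RPKM against 306, 304 and 58.0 RPKM, and the guanylate-binding protein Gbp2 at 335 RPKM against 739, 806 and 124 RPKM, at 0.33 and 0.47 of the way. The 29 interferon response genes among those higher in Th1 lay between -0.10 and 1.06 with a median of 0.62, and 21 of them were beyond 0.5. Over the 53 tested genes of the interferon response list, 46 were within the range of the 16 h cultures, as were 32.9% of all genes tested. The median log2 difference was -1.10 to Th0, -1.32 to Th1 and 0.56 to Th2, against -0.07, -0.04 and -0.06 for all genes tested. None of the 53 passed the test described below. For genes that differ between conditions, the gap between Th1 and Th2 widens both the range and the spread used in that test. Neither count therefore shows that the list did not differ. The summed level of the list was 2209 RPKM, against 4801, 5066 and 1245 RPKM. Among single cultures of all hours, the list was nearest to Th1 at 24 h, at 0.733 per gene, against 0.970 for Th2 at 16 h. In that Th1 culture Ifit3, Ifit1bl1 and Pydc4 were at 4.33, 7.15 and 5.96 RPKM. Low levels of these genes were thus not particular to Th2 when other hours were included.

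The promoters of Ifit3 and Gbp2, an interferon response gene near the Th2 level and one between Th1 and Th2, are shown for the element through which interferons act. They are examples picked after their values were seen and stand for no class. The sequences are the 250 bases before the start of transcription from RefSeq (GRCm38.p6), for Ifit3 chr19:34583279-34583528 on the plus strand and for Gbp2 chr3:142620413-142620662 on the plus strand. Capitals mark each match to GAAANNGAAA, the core of the interferon-stimulated response element, searched on both strands. The Ifit3 promoter holds 2 matches and the Gbp2 promoter 1. Of the other promoters looked at for this element, that of Cxcl10 held 1 match and the 2 of Irf1 held none.
Ifit3: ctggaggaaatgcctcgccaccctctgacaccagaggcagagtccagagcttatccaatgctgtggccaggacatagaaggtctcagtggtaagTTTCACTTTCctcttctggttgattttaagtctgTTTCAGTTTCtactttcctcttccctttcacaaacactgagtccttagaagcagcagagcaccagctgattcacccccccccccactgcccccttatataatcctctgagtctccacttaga
Gbp2: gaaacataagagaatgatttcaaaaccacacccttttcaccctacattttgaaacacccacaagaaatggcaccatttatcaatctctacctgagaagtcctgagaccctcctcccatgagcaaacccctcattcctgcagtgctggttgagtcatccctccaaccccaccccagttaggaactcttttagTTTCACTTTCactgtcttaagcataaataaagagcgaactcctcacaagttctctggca
The element was in 2.98% of the 32851 promoters of the table, and 3.46% of its 27025 genes had a promoter with it. It was in the promoters of 20 of the 42 interferon response genes with an entry (47.6%), of 23 of the 92 genes higher in Th1 (25%) and of 2 of the 50 genes higher in Th2 (4%). A match describes the sequence and shows no binding.

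The other genes with the widest gaps gave the same mixed picture. Ly6c1, a surface protein of interferon-exposed and memory T cells, was at 47.3 RPKM in the start library, against 106, 188 and 13 RPKM in Th0, Th1 and Th2. Of the genes higher in Th2, the chemokine receptor Ccr4 was at 41.7 RPKM against 15.8, 8.78 and 68.9 RPKM, and Id1, an inhibitor of helix-loop-helix factors, at 8.78 RPKM against 3.38, 1.77 and 15.2 RPKM. Both were above the Th0 and below the Th2 culture, and Sema4b, Npas2 and the sugar transporter Slc2a6 were placed in the same way, at 0.56, 0.60 and 0.76 of the way from Th1 to Th2. Pros1, the anticoagulant protein S, was at 23.7 RPKM, below Th0 (32.1 RPKM) and Th2 (61.5 RPKM) and above Th1 (5.85 RPKM). The master regulators lay in between as well. Tbx21, which encodes T-bet, was at 10.5 RPKM against 22.6, 29.1 and 4.04 RPKM, and Gata3 was at 19.5 RPKM against 18.1, 8.14 and 21.7 RPKM. Ifng was at 93.4 RPKM, above Th0 (65.0 RPKM) and Th2 (73.0 RPKM) and far under Th1 (499.9 RPKM).

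**Figure D2:**
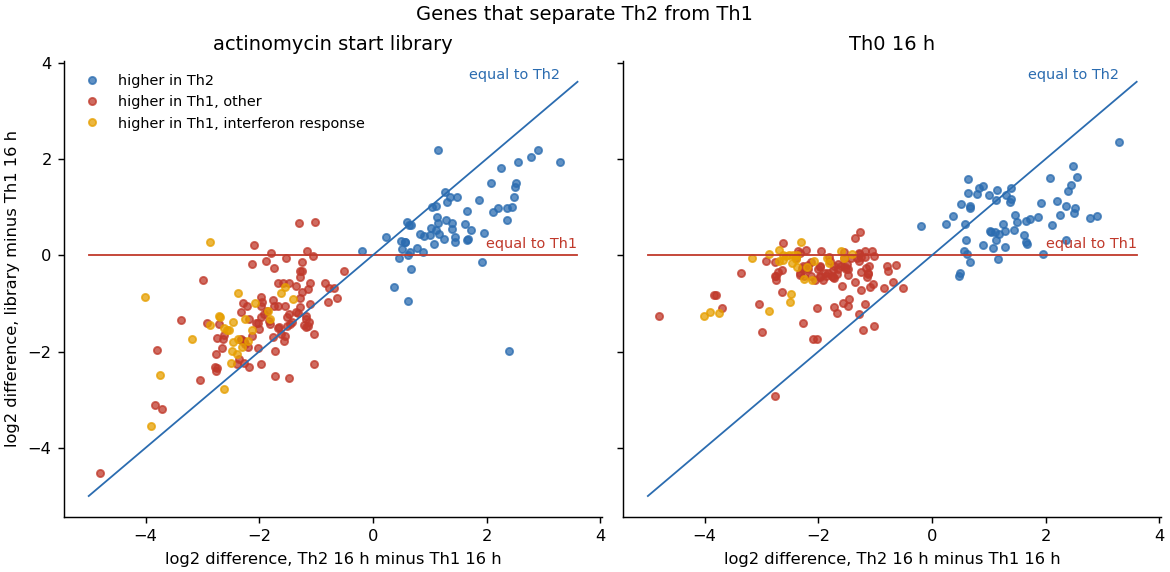
Each of the 193 genes that separate Th1 from Th2 at the other hours is a point, by its log2 difference between the Th2 and Th1 cultures at 16 h (horizontal axis) and between the start library (left) or the Th0 culture (right) and the Th1 culture (vertical axis). On the red line a gene equals Th1 and on the blue line Th2. The genes higher in Th1 lie nearer to the blue line in the start library (position 0.667) and along the red line in Th0 (0.206), while the genes higher in Th2 lie between the lines in both (0.477 and 0.498).

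The hour was placed with 4706 genes that changed over the time course. On the path through the means of the 3 conditions, the start library was nearest to 18.1 h, at a distance of 0.441 per gene. On the paths of single conditions it was nearest to 21.7 h in Th0, 18.8 h in Th1 and 14.4 h in Th2, and the Th2 path passed closest, at 0.435. Cultures placed in the same way on the path of the other 2 conditions missed their own hour with an SD of 1.94 h, and those at 16 h fell at 15.3 h (Th0), 14.2 h (Th1) and 19.2 h (Th2). The 18.1 h of the start library was within the range of these 16 h cultures, though farther from the labelled 16 h than that SD. The start library also lay farther from the path than any of the 18 cultures (0.215 to 0.413). The genes were chosen on the time course itself, which favours genes that vary little between cultures of the same hour. The start library took no part in that choice, so these distances are not on equal terms.

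Gene groups did not point to 1 hour. By the root mean square distance to the mean of the 3 conditions at each hour, genes of DNA replication, glycolysis, cholesterol synthesis and amino acid supply were nearest to 16 h. The interferon response list and the genes of resting T cells were nearest to 20 h, and ribosome biogenesis, cytosolic ribosomal proteins and oxidative phosphorylation to 24 h. Cytokines and chemokines were nearest to 8 h, though at a distance of 1.00 per gene, against 0.401 for DNA replication at 16 h. The mitosis list was nearest to 8 h among the hourly means and to the Th2 culture at 20 h among single cultures. Its mean level, on the log2(RPKM + 0.5) scale, went from 4.31 in resting cells to 2.40 at 8 h and 1.53 at 16 h and then to 3.07 at 24 h, and it was 2.38 in the start library. These are descriptions of lists, with no test.

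Gene by gene, few differences exceeded the spread between cultures. With limma, 29 of the 10727 genes tested (0.27%) differed at least 2-fold from the mean of the 16 h cultures at an adjusted p under 0.05, of which 13 were higher (0.121%) and 16 lower (0.149%) in the start library. At an unadjusted p under 0.05 the number was 1349. The spread came from the 18 cultures around the means of their hours, so the single start library was assumed to vary like a culture and the differences between conditions were part of the spread. With median-of-ratios scaling, 17 genes were higher and 13 lower. Without a test, 99 genes (0.923%) lay at least 2-fold outside the range of the 16 h cultures, 40 above it (0.373%) and 59 below it (0.55%). By any amount, 27.9% of all genes were above all 3 cultures and 39.2% below, and the median log2 difference of all genes was -0.06.

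The count depended on each of the 16 h cultures. Without the Th0 culture 16 genes were called, without the Th1 culture 13 and without the Th2 culture 18, and 327 genes instead of 99 lay 2-fold outside the range without the Th2 culture, 263 of them below it. Of the 29 genes, 12 kept the call whichever culture was left out, among them Arrdc3, Mki67, Birc5, Adgrg1 and Aqp1 among the higher genes and Mid1, Gm21857, Cd79a, Fcmr, Ighg2c and Ly6k among the lower genes. The other 17 were lost without at least one culture, with adjusted p up to 0.12.

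**Figure D3:**
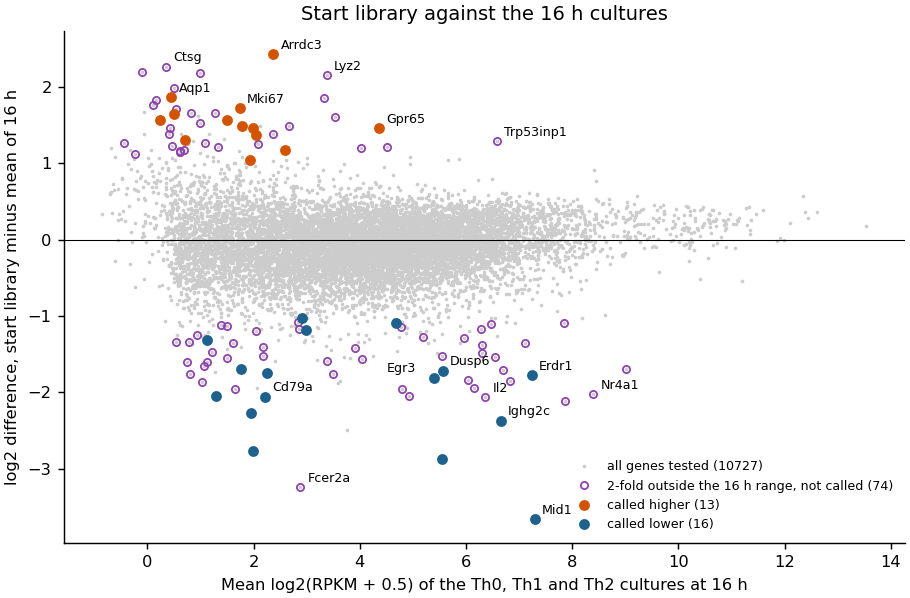
Mean log2(RPKM + 0.5) of the 16 h cultures (horizontal axis) against the difference of the start library from that mean (vertical axis, log2 units) for the 10727 genes tested, with filled points for the 29 genes called by limma and rings for genes only 2-fold outside the range of the cultures. There are 13 called genes above 0 and 16 below, and the lowest point is Mid1 at -3.67.

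Among the genes called, Mid1, a microtubule-associated ubiquitin ligase, had the widest difference. Its level was 11.9 RPKM in the start library and 154, 144 and 172 RPKM in the Th0, Th1 and Th2 cultures, and it was 84.4 to 191 RPKM over the 18 cultures, so no culture came near. The log2 difference was -3.67 ± 0.32 (SE, limma, adjusted p = 4.508e-05), 12.7-fold lower on the scale of RPKM + 0.5. Mid1 lies at chrX:169685199-170005736 (GRCm38, plus strand), close to the end of the X chromosome, and in C57BL/6 mice it spans the boundary of the pseudoautosomal region. Erdr1, named as an erythroid differentiation regulator and found in that region, was at 43.7 RPKM against 145, 155 and 152 RPKM (-1.77 ± 0.35, adjusted p = 0.03922, and 0.09056 to 0.0971 without one of the cultures). Gm21857, which RefSeq lists as a pseudogene of Mid1, was at 5.85 RPKM against 42.9, 45.1 and 50.1 RPKM (-2.87 ± 0.33, adjusted p = 0.0004148). Gm21887, which RefSeq gives as another name of Erdr1, was at 17.9 RPKM against 65.1, 69.3 and 62.5 RPKM (-1.84 ± 0.44, adjusted p = 0.08359). These entries are near-identical copies in pairs and may share reads, so they are not independent of each other, and they were set together after their values were seen. In the resting libraries Mid1 was at 98.2 and 109.9 RPKM, and it stayed low in the libraries kept for 1, 2 and 4 h with actinomycin, at 11.3, 17.0 and 31.2 RPKM.

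Genes of B cells were the next group that was lower. Cd79a, the signalling chain of the B cell receptor, was at 0.613 RPKM in the start library, which is 23 reads, and at 3.94, 4.83 and 3.72 RPKM in Th0, Th1 and Th2. The log2 difference was -2.06 ± 0.28 (SE, limma, adjusted p = 0.002688), and the ratios of these cultures to the start library were 6.43 (95% interval of counting 4.12 to 10.5), 7.87 (5.11 to 12.7) and 6.06 (3.88 to 9.88). Ms4a1, which encodes CD20, was at 0.302 RPKM against 4.13, 3.16 and 2.88 RPKM (-2.27 ± 0.43, adjusted p = 0.03684, and 0.0642 to 0.1017 without one of the cultures). None of the levels in the start library overlapped those of the 16 h cultures. Fcmr, the receptor for IgM, was at 0.0972 RPKM against 1.72, 1.87 and 2.33 RPKM (-2.04 ± 0.32, adjusted p = 0.01202), and was set here after its values were seen. Ighg2c, an immunoglobulin constant region, was at 18.9 RPKM against 122, 106 and 77.3 RPKM (-2.37 ± 0.26, adjusted p = 0.0003799), with 25.4 to 463 RPKM over the 18 cultures.

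All 11 tested genes of the B cell list were lower in the start library than in each 16 h culture, where 39.2% of all genes were, and their median log2 difference was -1.60. This median was -0.66 with no filter or when the mean had to reach 5 RPKM, and -2.47 with a pseudocount of 0.1. The summed level of the list was 111 RPKM against 236, 154 and 187 RPKM and 88.6 to 328 RPKM over the 18 cultures. The sum is carried by the class II genes Cd74 (50.9 RPKM against 107, 64.9 and 75.2 RPKM) and H2-Aa (23.9 RPKM against 43.7, 27 and 30.3 RPKM), which other cells also express. Fcer2a, the low-affinity IgE receptor of B cells, is one of the genes higher in Th2 used above, and at 0.277 RPKM against 7.36, 2.60 and 15.8 RPKM it was below every culture. In bulk libraries, fewer cells of a type and less RNA per cell cannot be told apart.

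The 8 tested genes of the NK cell list were also all below the 3 cultures, where 39.2% of all genes were. Their median was -1.51, but none passed the test. Klrb1c, which encodes NK1.1, was at 0.316 RPKM against 2.92, 2.12 and 3.01 RPKM (adjusted p = 0.0964), and Ncr1, which encodes NKp46, at 0.553 RPKM against 1.32, 4.56 and 1.98 RPKM. The granzyme Gzma was at 6.82 RPKM against 14.5, 50.1 and 36.3 RPKM (adjusted p = 0.28), and the list summed to 16.2 RPKM against 39.7, 104 and 58.6 RPKM and 28.9 to 244 RPKM over the 18 cultures. Of the CD8 T cell markers, Cd8a was at 0.711 RPKM against 1.36, 1.48 and 2.04 RPKM, and Cd8b1 at 4.25 RPKM against 5.61, 5.11 and 5.21 RPKM. The macrophage list, 11 tested, had a median of -0.43 to Th0, -0.19 to Th1 and 0.19 to Th2. Its sum was 84.0 RPKM against 68.3, 64.0 and 39.4 RPKM, but 38.1 RPKM against 52.8, 48.9 and 35.4 RPKM without Lyz2, which neutrophils also express, with Csf1r, the defining receptor, at 2.39 RPKM against 2.34, 2.05 and 2.03 RPKM. The part of these cell types in the other differences was not tested.

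**Figure D4:**
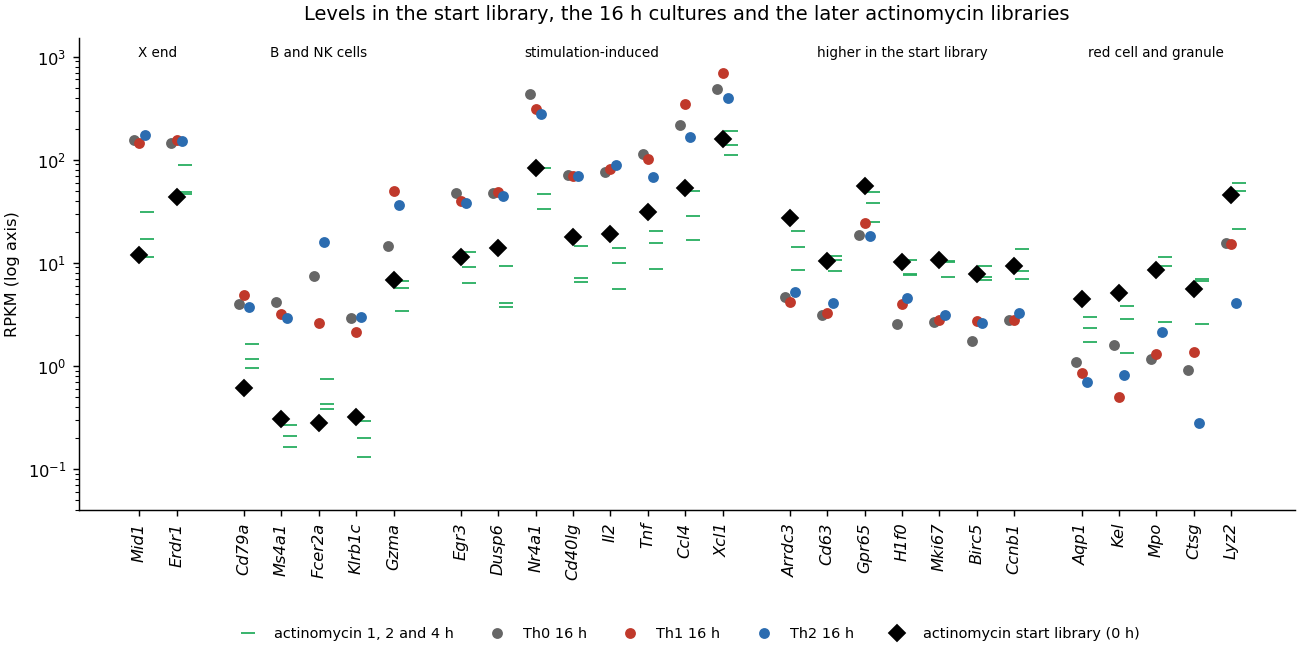
Expression in RPKM (log axis) of named genes in the start library, the 3 cultures at 16 h and the libraries kept with actinomycin for 1, 2 and 4 h, with a dot for each culture, a diamond for the start library and green bars for the later libraries. Cd79a is at 0.613 RPKM in the start library and at 3.72 to 4.83 RPKM in the cultures, while Arrdc3 is at 27.3 RPKM and at 4.18 to 5.23 RPKM.

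Egr3 and Dusp6, which signals through the T cell receptor switch on, and the chemokine gene Ccl9 were also called lower, and none of the 3 kept the call when any one of the 16 h cultures was left out. Egr3, a zinc-finger factor induced by NFAT, was at 11.5 RPKM against 47.7, 39.6 and 37.8 RPKM in Th0, Th1 and Th2 (-1.81 ± 0.35, SE, limma, adjusted p = 0.03684, and 0.06957 to 0.1079 without one of the cultures). The lowest of the 18 cultures was at 27 RPKM. Dusp6, the phosphatase that ERK signals induce against ERK itself, was at 13.9 RPKM against 47.0, 48.6 and 44.7 RPKM (-1.72 ± 0.33, adjusted p = 0.03684, and 0.07036 to 0.0971 without one of the cultures). The chemokine Ccl9 was at 2.99 RPKM against 8.46, 7.13 and 6.92 RPKM (-1.19 ± 0.24, adjusted p = 0.03922, and 0.07715 to 0.12 without one of the cultures). All 3 were below each of the 16 h cultures.

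Some other genes that T cell stimulation induces lay at least 2-fold below the 16 h cultures without passing the test, and many of them varied widely over the 18 cultures. Nr4a1, a nuclear receptor that follows the strength of receptor signals, was at 82.2 RPKM against 434, 313 and 280 RPKM (-2.03 ± 0.48, adjusted p = 0.08152), a ratio to the start library of 5.28, 3.80 and 3.40. Il2, the T cell growth factor, was at 19.2 RPKM against 75.2, 81.3 and 89.5 RPKM (-2.06 ± 0.68, adjusted p = 0.2191). Its level over the 18 cultures ran from 7.07 to 199.8 RPKM, so the start library lay within that range. Cd40lg, the ligand that helps B cells, was at 17.8 RPKM against 71.7, 69.5 and 69.3 RPKM (adjusted p = 0.07248), and the lowest of the 18 cultures was at 48.7 RPKM. Tnf was at 31.4 RPKM against 113, 102 and 68.3 RPKM (adjusted p = 0.272), and Nfkbid, a member of the IκB family that was picked after its values were seen, at 30.8 RPKM against 136, 101 and 105 RPKM (adjusted p = 0.05226). Of the 29 tested cytokines and chemokines, 18 were below all 3 cultures, none was above and 11 were within their range. Of all genes tested, 39.2% were below, 27.9% above and 32.9% within. Their median log2 difference was -0.81, with -0.64 to Th0, -1.11 to Th1 and -0.81 to Th2, and Ccl9 alone was called.

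Several chemokines and other members of these families were placed in the same way. Ccl4, an inflammatory chemokine, was at 53.6 RPKM against 219, 347 and 166 RPKM (adjusted p = 0.1972), and Ccl3 at 31.2 RPKM against 89.2, 186 and 66.6 RPKM (adjusted p = 0.3954). Xcl1, which attracts dendritic cells, was at 159 RPKM against 489, 699.6 and 401 RPKM (adjusted p = 0.2174). Each was below all 3 cultures, where 39.2% of all genes were, and in each the Th1 culture was the highest. Nr4a2 was at 15.9 RPKM against 63.5, 37.6 and 42.0 RPKM (adjusted p = 0.1957) and Nr4a3 at 53 RPKM against 168, 136 and 112 RPKM (adjusted p = 0.2277). Like Nr4a1, both were below all 3 cultures, where 39.2% of all genes were, and none of these NR4A genes passed the test. Tnfsf14, the costimulatory ligand LIGHT, was at 6.67 RPKM against 31.0, 25.5 and 25.8 RPKM (adjusted p = 0.07137).

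Genes of activation had a median close to that of all genes, but some of them were clearly lower. The list of T cell activation genes, 25 tested, had a median of -0.07, and Egr3 was the member called. In the list 11 were below and 4 above the 3 cultures, against 39.2% and 27.9% of all genes. At least 2-fold below the range were 5 of the 25, against 0.55% of all genes, and 0 were 2-fold above it. Cd69, an early surface marker, was at 178 RPKM against 250, 286 and 221 RPKM, and Myc at 194 RPKM against 287, 247 and 315 RPKM. The 26 tested immediate early genes had a median of -0.34 with 13 below the 3 cultures and 6 above, against 39.2% and 27.9% of all genes. Arc, known best as a synaptic gene, and Klf10, a factor of the TGF-β pathway, went the other way. Arc was at 13.1 RPKM against 6.48, 4.38 and 6.01 RPKM (1.17 ± 0.24, SE, limma, adjusted p = 0.04269, and 0.06253 to 0.09904 without one of the cultures). Klf10 was at 7.36 RPKM against 3.49, 3.50 and 2.99 RPKM (1.04 ± 0.21, adjusted p = 0.03922, and 0.08029 to 0.1007 without one of the cultures). Both lie outside these lists and were named after their values were seen.

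The promoters of Il2 and Tnf are shown for GGAAA, the core bound by NFAT, which is shared with sites of other factors such as NF-κB and ETS. The sequences are again the 250 bases before the start from RefSeq (GRCm38.p6), for Il2 chr3:37125955-37126204 and for Tnf chr17:35202008-35202257, both on the minus strand and printed in the direction of the gene. Capitals mark the matches on either strand, 2 in Il2 and 3 in Tnf. These are examples picked after their values were seen. Of the other promoters looked at for this core, that of Ccr4 held 1 match and that of Nr4a1 held none.
Il2: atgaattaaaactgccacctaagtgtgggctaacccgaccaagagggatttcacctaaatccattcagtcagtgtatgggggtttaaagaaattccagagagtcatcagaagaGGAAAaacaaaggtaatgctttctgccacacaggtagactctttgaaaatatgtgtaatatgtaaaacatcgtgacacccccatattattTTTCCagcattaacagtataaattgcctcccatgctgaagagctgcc
Tnf: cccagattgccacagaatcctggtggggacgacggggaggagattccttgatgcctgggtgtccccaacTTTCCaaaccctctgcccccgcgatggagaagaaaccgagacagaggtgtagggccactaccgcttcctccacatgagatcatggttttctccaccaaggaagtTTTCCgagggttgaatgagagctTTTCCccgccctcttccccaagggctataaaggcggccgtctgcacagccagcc
The letters occur in 55.6% of all promoters, so a match carries little information. They were in the promoters of 23 of 25 cytokines and chemokines with an entry (92%), of 26 of 38 genes at least 2-fold below the range (68.4%) and of 22 of 33 genes at least 2-fold above it (66.7%), against 58.8% of all genes. The genes below and above the range thus held the core in like shares.

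The other genes called lower fall in none of these groups, and they were named after their values were seen. Ly6k, a surface protein of the Ly6 family, was at 0.907 RPKM against 4.13, 4.15 and 4.43 RPKM (-1.75 ± 0.29, SE, limma, adjusted p = 0.01342). Fbxl8, an F-box protein, was at 0.551 RPKM against 3.52, 3.19 and 2.14 RPKM (-1.69 ± 0.28, adjusted p = 0.01473, and 0.009724 to 0.05857 without one of the cultures). Midn, a nuclear protein that delivers short-lived transcription factors to the proteasome, was at 11.5 RPKM against 27.6, 24.4 and 23.3 RPKM (-1.09 ± 0.19, adjusted p = 0.02359, and 0.0387 to 0.08603 without one of the cultures). All were below each of the 16 h cultures. The zinc-finger genes Zfp658 and Zfp574 were at 0.383 RPKM against 1.83, 1.53 and 1.72 RPKM and at 3.21 RPKM against 7.53, 6.21 and 7.51 RPKM, both with an adjusted p of 0.03684 that did not hold without one or another of the cultures (up to 0.1028 and 0.1085).

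Arrdc3, an arrestin-domain protein that takes surface receptors out of use, was the gene with the widest rise. Its level was 27.3 RPKM in the start library and 4.68, 4.18 and 5.23 RPKM in Th0, Th1 and Th2. None of the 18 cultures was above 9.96 RPKM, and the resting libraries were at 16.0 and 14.8 RPKM, so the start library was above all of them. The log2 difference was 2.43 ± 0.25 (SE, limma, adjusted p = 0.0001685), 5.37-fold on the scale of RPKM + 0.5. Trp53inp1, a target of p53, also lay above the cultures, at 234 RPKM against 96.9, 103 and 87.3 RPKM (1.29 ± 0.28, adjusted p = 0.0603). The 16 tested genes of the p53 list had a median of -0.02.

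Surface proteins and a linker histone made up another part of the higher genes. Cd63, a tetraspanin of lysosomes and secretory granules, was at 10.4 RPKM against 3.08, 3.28 and 4.06 RPKM, and no culture was above 4.06 RPKM (1.47 ± 0.26, SE, limma, adjusted p = 0.02826, and 0.0387 to 0.0971 without one of the cultures). Gpr65, a receptor that senses protons, was at 56.2 RPKM against 18.7, 24.2 and 18.1 RPKM (1.46 ± 0.29, adjusted p = 0.03922, and 0.05857 to 0.1174 without one of the cultures). H1f0, the linker histone of cells that have stopped dividing, was at 10.1 RPKM against 2.57, 3.96 and 4.55 RPKM (1.37 ± 0.28, adjusted p = 0.04403, and 0.03939 to 0.1079 without one of the cultures). All 3 were above each of the 16 h cultures. Adgrg1, an adhesion receptor of cytotoxic lymphocytes also known as GPR56, was at 3.53 RPKM against 1.16, 1.10 and 1.14 RPKM (1.30 ± 0.21, adjusted p = 0.01342). It was at 3.82 and 4.46 RPKM in the resting libraries, so its level in the start library was nearer to theirs than to the cultures, and it too was named after its values were seen.

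Genes of mitosis were higher together. Mki67, the Ki-67 antigen of cycling cells, was at 10.6 RPKM against 2.67, 2.78 and 3.11 RPKM in Th0, Th1 and Th2 (1.73 ± 0.26, SE, limma, adjusted p = 0.01005), a ratio of 3.95 (95% interval of counting 3.63 to 4.31), 3.81 (3.53 to 4.11) and 3.40 (3.14 to 3.68). Birc5, the survivin subunit of the chromosomal passenger complex, was at 7.86 RPKM against 1.75, 2.71 and 2.60 RPKM (1.57 ± 0.26, adjusted p = 0.01342). Ccnb1, the cyclin of entry into mitosis, was at 9.22 RPKM against 2.79, 2.80 and 3.29 RPKM (1.49 ± 0.29, adjusted p = 0.03684, and 0.0642 to 0.1017 without one of the cultures). These levels were not outside the time course: Mki67 was at 94.0 and 91.8 RPKM in resting cells and at 2.67 to 36.8 RPKM over the 18 cultures. Cdk1, the partner of Ccnb1, was at 13 RPKM against 3.43, 4.85 and 6.09 RPKM (adjusted p = 0.1403), and Top2a, which untangles replicated DNA, at 37.0 RPKM against 14.9, 16.3 and 16.3 RPKM (adjusted p = 0.09283). Of the 29 tested genes of the mitosis list, 26 were above all 3 cultures, where 27.9% of all genes were, and their median log2 difference was 0.79. Genes of DNA replication, 39 tested, had a median of 0.26 with 19 above the 3 cultures and 1 below, and none was called.

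Red cell genes were higher in the start library as well. All 10 tested genes of the red cell list were above the 3 cultures, where 27.9% of all genes were. Their median was 0.75, and 1 was called. Slc4a1, the anion exchanger of red cells, was at 7.08 RPKM against 2.31, 2.38 and 1.22 RPKM (adjusted p = 0.05226). The haemoglobin genes were the most abundant members and differed least, with Hbb-bs at 889.8 RPKM against 686, 651 and 478 RPKM and Hba-a1 at 606 RPKM against 524, 509 and 378 RPKM. The list summed to 2556 RPKM against 2057, 1989 and 1486 RPKM, and varied from 162 to 47428 RPKM over the 18 cultures. Aqp1, the water channel of red cells, was at 4.50 RPKM against 1.09, 0.845 and 0.692 RPKM (1.87 ± 0.30, SE, limma, adjusted p = 0.013), and Hemgn, a nuclear protein of erythroid precursors, at 2.99 RPKM against 0.676, 0.474 and 0.927 RPKM (1.57 ± 0.30, adjusted p = 0.03684, and 0.0387 to 0.0971 without one of the cultures). Aqp1 and Hemgn were set with the red cell genes after their values were seen.

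Some genes for granule proteins of neutrophil precursors were above the 3 cultures, without passing the test. Mpo, myeloperoxidase, was at 8.53 RPKM against 1.16, 1.31 and 2.11 RPKM (adjusted p = 0.08942). Ctsg, the protease cathepsin G, was at 5.58 RPKM, 144 reads, against 0.914, 1.35 and 0.276 RPKM, which is 22, 44 and 7 reads (adjusted p = 0.06798). The ratio of Ctsg to the cultures was 6.11 (95% interval of counting 3.88 to 10.1), 4.12 (2.92 to 5.92) and 20.2 (9.57 to 51.2), so the difference was beyond counting error in each. Elane, neutrophil elastase, was at 3.17 RPKM against 0.86, 0.804 and 0.215 RPKM, and Prtn3, proteinase 3, at 3.77 RPKM against 0.18, 0.773 and 0.426 RPKM. Mpo and Elane belong to the neutrophil list, whose other tested genes differed less. S100a8, a calcium-binding protein of neutrophils, was at 3.57 RPKM against 2.12, 1.10 and 0.403 RPKM, with a ratio to Th0 of 1.68 (0.947 to 3.06) that was within counting error. Its partner S100a9 was within the range of the cultures, at 2.11 RPKM against 1.94, 2.16 and 0.463 RPKM. The list of 4 tested genes had a median of 1.57, and 3 of them were above the 3 cultures, where 27.9% of all genes were. It summed to 17.7 RPKM against 6.8, 6.0 and 3.3 RPKM. Ctsg and Prtn3 were set beside them after their values were seen.

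The Ifitm genes, which encode antiviral membrane proteins induced by interferons and which the series was made to follow, were at different places. Ifitm1 was at 17.4 RPKM in the start library and at 5.71, 8.15 and 4.25 RPKM in Th0, Th1 and Th2, above the 8.22 RPKM of the highest culture (1.49 ± 0.41, SE, limma, adjusted p = 0.1332). Ifitm2 was at 17.3 RPKM against 13.9, 16.8 and 7.31 RPKM, a ratio of 1.03 to Th1 with an interval of 0.877 to 1.21. Ifitm3 was at 11.7 RPKM against 2.64, 10.1 and 1.98 RPKM, which is 4.45 times Th0 (3.19 to 6.33) and 5.93 times Th2 (4.11 to 8.79) but 1.17 times Th1 (0.962 to 1.42). By Ifitm2 and Ifitm3 the start library was therefore level with the Th1 culture within counting error, while by Ifit3 and Ifit1bl1 it was near Th2.

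**Figure D5:**
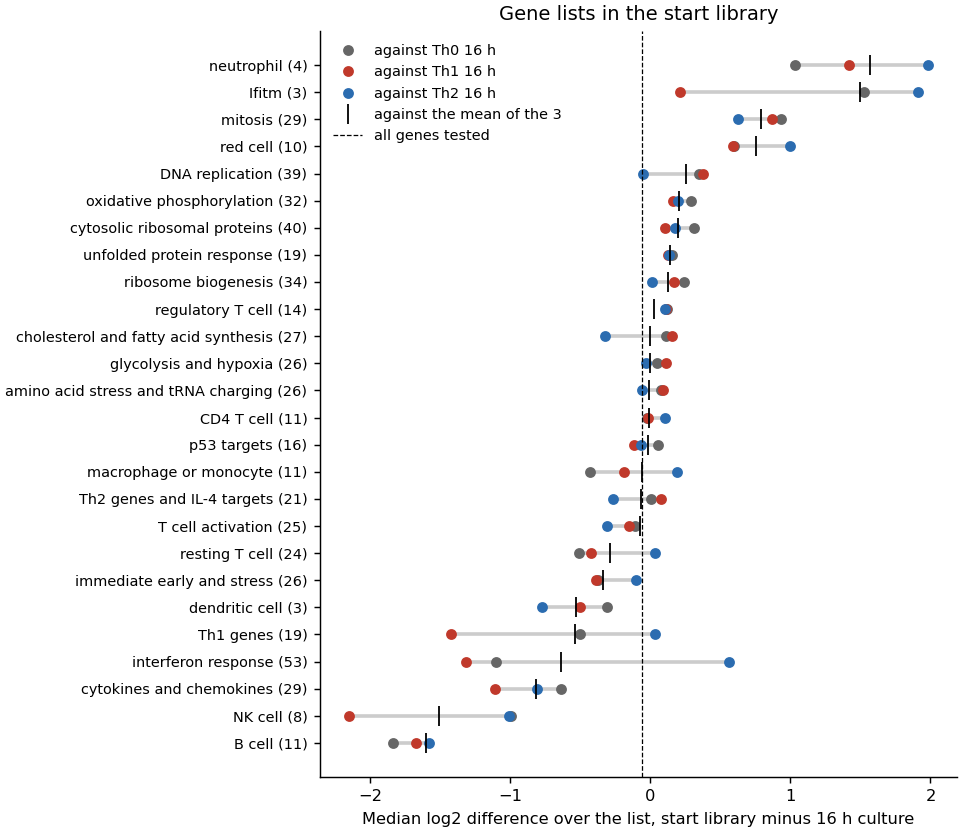
Median log2 difference of the start library from the 3 cultures at 16 h for the tested genes of each gene list (horizontal axis, log2 units), with a dot per culture compared, a vertical stroke for the mean of the 3, the number of genes tested in brackets and a dashed line at the median of all genes tested (-0.06). B cell genes lie lowest at -1.84, -1.67 and -1.58 against Th0, Th1 and Th2, mitosis genes lie at 0.94, 0.87 and 0.63, and the interferon response genes lie on both sides of 0.

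Of the remaining lists, several were within 0.3 of the median of all genes. Cytosolic ribosomal proteins, 40 tested, had a median of 0.20 with 28 above the 3 cultures, oxidative phosphorylation, 32 tested, 0.20 with 22 above, and ribosome biogenesis 0.13. Of all genes tested, 27.9% were above. The unfolded protein response stood at 0.14, regulatory T cell genes at 0.03 and genes of resting T cells at -0.29. The 19 tested Th1 genes lay lower, with a median of -0.54 (-0.50 to Th0, -1.42 to Th1 and 0.03 to Th2), as did the dendritic cell (-0.53, 3 tested) and CD8 T cell (-0.54, 2 tested) lists. A median of -0.07 was found for the 21 tested Th2 genes, with Dusp6 the member called.

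Most of the differences were also present in the later actinomycin libraries, which were not used to choose the genes. With transcription stopped, these libraries reflect RNA already made at the start, so low levels that stay low add no separate support. No share over all genes was taken for the counts that follow, which are a description only. Of the 13 genes called higher, 12 were beyond the range of the 16 h cultures in all 3 libraries kept for 1, 2 and 4 h, and so were all 16 genes called lower. By the 2-fold rule, 35 of the 40 genes above the range and 55 of the 59 below it were. The start library and the 3 later ones were all beyond the range of all 18 cultures for 15 of the 16 genes called lower and for 3 of the 13 called higher. Cd79a was at 1.18, 0.952 and 1.63 RPKM at 1, 2 and 4 h, Ighg2c at 22.0, 18.5 and 13.2 RPKM and Cd63 at 10.7, 8.30 and 11.7 RPKM, each still outside the range of the 16 h cultures. Red cell genes moved unevenly, with Hbb-bs at 456, 419.9 and 807 RPKM after 889.8 RPKM. Arrdc3 went from 27.3 RPKM at the start to 20.4, 14.1 and 8.56 RPKM, Dusp6 from 13.9 to 9.22, 4.10 and 3.70 RPKM and Nr4a1 from 82.2 to 82.8, 33.6 and 46.0 RPKM. The 4 actinomycin libraries belong to 1 experiment, and whether they came from 1 culture is not stated, so they are not independent of each other.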

How the data were processed

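The authors deposited 1 table of RPKM values per gene symbol for all 24 libraries, with 22010 entries, of which 1 has no name and 4073 named entries are at 0 throughout. Their processing notes name BWA and GRCm38, without the role of either. Whether reads were counted by strand is not given in the sources used here. RPKM are not counts. The depth was recovered from values that are whole multiples of 1 read. Of 816 such genes with 1 annotated transcript, 500 (61.3%) agreed on the depth. With that depth and a length fitted to each gene, 6157 of 16282 genes (37.8%) gave whole reads in every library, within a tolerance of 0.02.

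Differences were tested with limma 3.58.1 (R 4.3.3) with an intensity trend, on log2(RPKM + 0.5) of the 10727 genes averaging 1 RPKM or more over 19 libraries (the start library and 18 cultures). The fit had the time point as its factor, 12 residual degrees of freedom and Benjamini-Hochberg adjustment. This scale understates the change of low genes. A gene was called at an adjusted p under 0.05 and at least 2-fold. The p-values are two-sided and measure the spread between cultures of different conditions from 1 pool of cells, not between animals. On simulated data with 10727 genes for this comparison, 90 of 100 genes changed by a log2 of 2 and 81 of 100 changed by 1.5 were called, with 3 of 10527 unchanged genes. The simulated start library was given the spread of the cultures and no offset of its own. The simulation therefore does not cover calls that a separate preparation could produce. Likeness, position and hour carry no test. Python 3.11.15, scipy 1.17.1, numpy 2.4.6 and pandas 2.3.3 were used. Ratios have exact conditional binomial 95% intervals on recovered reads, which cover counting error only.

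Genes were named where they were called, lay at least 2-fold outside the range of the 16 h cultures and reached 5 RPKM, up to 12 in each direction, together with members of 27 gene lists, the Ifitm genes and the 6 genes with the widest gap between Th1 and Th2 in each direction. Members and lists were chosen with earlier results of these data known. The alternatives were pseudocounts, filters, scalings, other sets of libraries and other measures of distance. Using only the cultures at 12 to 20 h, and leaving out or keeping gene groups for the likeness, were added after seeing the data. Some genes of the lists are counted but not reported here by name.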

Additional observations from a re-analysis of the deposited data

How the results depend on the processing

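The number of genes called, 29 (13 higher and 16 lower), was the result that moved most. It was 58 (35 higher) with no filter on low values, 16 (7 higher and 9 lower) when the mean had to reach 5 RPKM, 164 (52 and 112) with time point and condition as factors, 9 (1 and 8) with only the 4 libraries compared, 50 (22 and 28) with the resting libraries added and 63 (45 lower) with only the cultures at 12, 16 and 20 h. With a pseudocount of 0.1, 26 genes were lower. Without 1 of the 16 h cultures it ranged from 13 to 18, with 5 to 8 higher and 8 to 10 lower. Fewer libraries leave a fit with fewer degrees of freedom, and with condition as a factor the difference between conditions is no longer part of the spread. Arrdc3, Mid1 and Gm21857 were called in all 14 alternatives. Of the calls on named genes, 671 were the same, 85 were lost, 66 were gained and 0 changed direction. Il2, Nr4a1, Cd40lg, Nfkbid, Tnfsf14 and Xcl1 passed the test with condition as a factor (adjusted p for Il2 0.0259) and with the cultures at 12 to 20 h only (0.002709), and over all alternatives the adjusted p of Il2 was 0.002709 to 0.3914.

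The 99 genes outside the range (40 above and 59 below) were 152 (62 and 90) with a pseudocount of 0.1, 65 (37 below) with a pseudocount of 1, 56 (20 and 36) at a mean of 5 RPKM or more, and 64 were above with no filter. Without 1 of the cultures they were 108 to 327, with 46 to 64 above and 62 to 263 below. The Th2 culture at 16 h, first in likeness, ranked 2 under that filter and 6 by the median absolute difference. Without the genes that separate Th1 from Th2 and the interferon response list it was first, at 0.394. The position between Th1 and Th2 stayed between 0.611 and 0.658 over its alternatives. The hour, 18.1 h, was 21.7 h on the Th0 path and 14.4 h on the Th2 path. The median of the B cell list, -1.60, was -2.47 with a pseudocount of 0.1, -1.14 with 1, -0.66 with no filter and equally where the mean had to reach 5 RPKM, -1.33 with quantile normalization, and -1.47 to -1.76 without 1 of the cultures. That of the mitosis list, 0.79, was 0.95 with a pseudocount of 0.1. Where no cause is given, the cause was not tested. Low B and NK cell values rest on few reads in the start library, such as 23 for Cd79a. No paired analysis was possible because the start library and each culture were sequenced once and only the resting libraries carry replicate numbers.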

Other observations

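A few genes outside the groups described lay far above the 16 h cultures, and they were picked after their values were seen. Akr1c18, which inactivates progesterone, was at 36.0 RPKM in the start library and at 8.16, 7.51 and 14.3 RPKM in the Th0, Th1 and Th2 cultures. Plac8, a small cysteine-rich protein of myeloid and activated lymphoid cells, was at 34.9 RPKM against 11.9, 16.5 and 6.98 RPKM. Lyz2, the lysozyme of macrophages and neutrophils, was at 45.9 RPKM against 15.5, 15.1 and 4.03 RPKM, while C1qa, which marks mature macrophages, was at 0.336 RPKM against 1.24, 0.741 and 0 RPKM. None of the first 3 passed the test with limma (adjusted p = 0.2445 for Lyz2). By read counts, the chi-square per gene had a median of 7.42 (mean 55.9) against Th2, 8.30 (75.0) against Th1 and 9.90 (73.3) against Th0 at 16 h, so Th2 was lowest by both while the order of Th1 and Th0 differed. The median was 3.96 for the library kept for 1 h with actinomycin and 1.38 between the 2 resting libraries. The chi-square rises with depth, which differed between these libraries, so the values are not on 1 scale. They cover only the 3991 to 4305 genes with enough recovered reads in each comparison.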
